A study of Homo sapiens with 12 samples.

Results

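The CCN matricellular proteins are a family of 6 secreted proteins, and their genes were read in A375 cells as CYR61 (CCN1), CTGF (CCN2), NOV (CCN3), WISP1 (CCN4), WISP2 (CCN5) and WISP3 (CCN6). The members were taken by gene symbol, with earlier results of these data known, and each symbol stood on 1 of the 31585 loci of the expression table. A375 is a human melanoma cell line with a hypotriploid genome. RNA was sequenced from cells that stably carried the retroviral vector MSCV-IRES-Hygro, either empty (Control) or encoding the YAP mutants YAP-S127A, YAP-S94A,S127A or YAP-S127A,S381A, with 3 libraries per group. Each group was 1 transduced and hygromycin-selected line plated 3 times, so p-values measure the spread between platings of 1 line and not between independently derived lines. All 4 groups were grown on plastic in medium with serum, and all the YAP mutants share S127A, which removes an inhibitory LATS phosphorylation site. S381A removes a further LATS site that primes YAP for degradation, and S94A disrupts the binding of YAP to TEAD transcription factors. One label field of the YAP-S127A,S381A libraries also lists S94A, whereas their titles do not, and the titles were followed.

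CCN proteins are secreted into the extracellular matrix, where they bind integrins, proteoglycans and growth factors and so alter adhesion, migration and growth factor signaling. They are built from an IGF-binding protein (IGFBP) module, a von Willebrand factor C module, a thrombospondin type 1 repeat and a C-terminal cystine knot, the last of which is lacking in WISP2. YAP is a transcriptional co-activator that the Hippo pathway restrains and that reaches DNA mainly through TEADs, and CYR61 and CTGF are its most widely used target genes.

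Expression is given as FPKM, fragments scaled by transcript length and by the mapped fragments of the library, back-transformed from deposited log2(FPKM + 1) values. Read depth cannot be recovered from such values and is unknown here. Libraries summed to 790865 to 901558 FPKM and had 20161 to 20656 loci above 0. Differences were tested with limma over the 15055 loci that reached 1 FPKM in 3 or more libraries, with Benjamini-Hochberg adjustment. A gene was counted as higher or lower at an adjusted p under 0.05 together with a more than 2-fold difference in mean FPKM. The library labelled Control replicate 3 stood apart in YAP1, the gene the vectors encode, with 172 FPKM against 34.1 and 33.0 in the other Control libraries. It was kept as Control, and member values against Control are also given without it. Without that library YAP1 was called higher in all 3 mutants, by 4.12-fold in YAP-S127A,S381A, 5.01-fold in YAP-S127A and 4.59-fold in YAP-S94A,S127A (adjusted p of 1.3e-07, 1.7e-06 and 6.2e-06 from limma), and with it in none (adjusted p of 0.0662, 0.109 and 0.919). Of the melanocyte markers, MLANA, PMEL, TYR and DCT stayed at or below 0.580 FPKM in all libraries. TYRP1, a further one, averaged 0.0749 FPKM in Control, 0.260 in YAP-S127A and 0.812 in YAP-S127A,S381A cells, with at most 0.949 FPKM in any library. SOX10, a transcription factor of the melanocyte lineage, averaged 263 FPKM in Control and 6.16 FPKM in YAP-S127A,S381A cells, whereas MITF, the lineage factor of pigment cells, averaged 8.59 and 35.0 FPKM.

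CYR61, CTGF and NOV were higher in the cells with a YAP mutant that keeps TEAD binding, whereas WISP3 stayed near 2 FPKM in all groups and WISP1 and WISP2 were barely detected. Compared to Control, mean FPKM in YAP-S127A,S381A cells was 13.9-fold higher for NOV, 6.27-fold for CYR61 and 4.62-fold for CTGF. In YAP-S127A cells the same 3 genes had 3.33, 2.31 and 1.98 times the Control mean. None of the 4 members tested differed between YAP-S94A,S127A and Control cells at an adjusted p under 0.05, by limma, and none did so at an unadjusted p under 0.05.

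**Figure D1:**
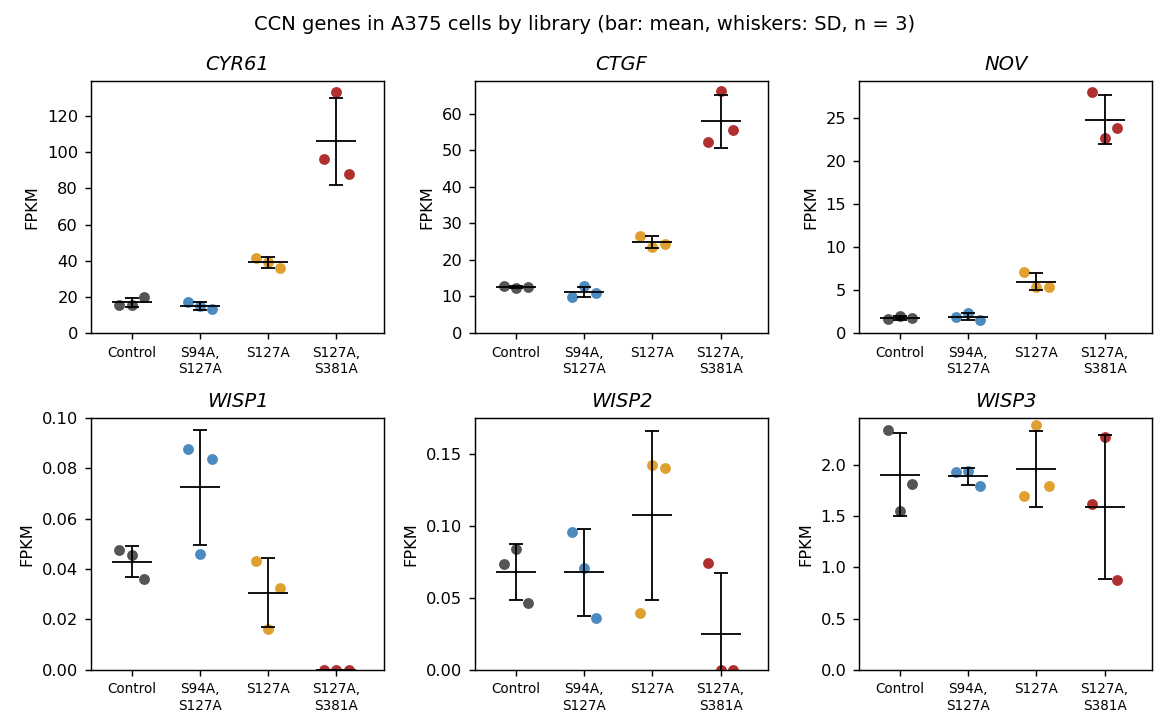
FPKM of the 6 CCN genes in each library, with 1 panel per gene, its own linear axis from 0, points for libraries, a horizontal bar for the group mean and whiskers for the SD (n = 3). CYR61, CTGF and NOV are highest in the 3 YAP-S127A,S381A libraries, WISP3 overlaps between all groups, and the WISP1 and WISP2 axes end below 0.2 FPKM.

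CYR61 encodes a ligand of integrins and heparan sulfate proteoglycans that promotes cell adhesion, and it lies on chromosome 1 of GRCh37 from 86046444 to 86050272 on the plus strand. Its locus in the table also lists the transcript AL832891, so the value belongs to both. CYR61 had 15.3, 15.6 and 19.7 FPKM in the Control libraries and 17.0, 14.8 and 13.1 FPKM in the YAP-S94A,S127A libraries. In the YAP-S127A libraries it had 41.7, 39.3 and 36.1 FPKM, and in the YAP-S127A,S381A libraries 96.4, 133 and 88.1 FPKM. The Control and YAP-S94A,S127A libraries overlapped, all YAP-S127A libraries lay above both, and all YAP-S127A,S381A libraries lay above those. Group means were 16.9 ± 2.48, 14.9 ± 1.96, 39.0 ± 2.80 and 106 ± 24.1 FPKM (SD, n = 3) in the same order. The highest Control value came from the library labelled Control replicate 3, and without it the log2 fold change in YAP-S127A,S381A moved from 2.57 to 2.68 on the log2(FPKM + 1) scale.

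CTGF encodes a secreted protein best known for its part in connective tissue deposition downstream of TGF-beta. It lies on the minus strand of chromosome 6 of GRCh37 from 132269316 to 132272512, within the opposite-strand noncoding gene LINC01013, and strand use in the counting is not given in the sources used here. Among the 6 genes, CTGF and WISP3 had an entry in the RefSeq promoter table of assembly GRCh38.p14. The 250 bases before the start of each are shown because CTGF rose and WISP3 did not, with the TEAD core motif GGAATG, searched on both strands, in capitals. The CTGF bases are chr6:131951373-131951622 on the minus strand, and the WISP3 bases are chr6:112053854-112054103 on the plus strand.
CTGF: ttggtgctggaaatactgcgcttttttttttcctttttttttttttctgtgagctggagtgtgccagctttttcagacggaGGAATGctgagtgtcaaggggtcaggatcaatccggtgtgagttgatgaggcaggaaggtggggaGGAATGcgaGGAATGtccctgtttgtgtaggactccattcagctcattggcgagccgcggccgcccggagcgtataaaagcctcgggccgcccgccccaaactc
WISP3: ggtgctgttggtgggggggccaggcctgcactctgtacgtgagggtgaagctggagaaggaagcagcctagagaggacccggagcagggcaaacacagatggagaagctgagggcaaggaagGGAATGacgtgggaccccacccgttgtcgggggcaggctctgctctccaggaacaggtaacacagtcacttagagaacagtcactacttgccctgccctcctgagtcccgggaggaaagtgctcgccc
The CTGF sequence held 3 matches, which began at positions -169, -104 and -95 from the start, and the WISP3 sequence held 1, which began at -128. At least 1 match was found in 11.9% of the 35116 promoters of the table, and 3 or more in 0.0826% of them. Neither sequence matched the AP-1 site TGANTCA (6.57% of promoters), the SMAD element CAGACA (13.6%) or the CArG box bound by SRF (1.16%). Only these exact patterns were searched, so other forms of the same elements were not counted. A match describes the letters only and is not a measured binding site.

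CTGF had 12.7, 12.2 and 12.7 FPKM in the Control libraries and 9.94, 12.8 and 10.9 FPKM in the YAP-S94A,S127A libraries. It had 26.6, 23.5 and 24.3 FPKM in the YAP-S127A libraries and 52.1, 66.1 and 55.5 FPKM in the YAP-S127A,S381A libraries. As for CYR61, the first 2 groups overlapped and the other 2 lay above them without overlap. The group means were 12.5 ± 0.312, 11.2 ± 1.48, 24.8 ± 1.61 and 57.9 ± 7.29 FPKM (SD, n = 3). CTGF was thus the member closest to the fold threshold in YAP-S127A cells, with an adjusted p of 3.1e-04 from limma but a ratio of means of 1.98.

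NOV encodes a CCN protein that is often described as a brake on proliferation and as a regulator of the other members. It lies on chromosome 8 of GRCh37 from 120428686 to 120436674 on the plus strand and overlaps a pair of noncoding genes on the opposite strand. NOV had 1.61, 2.03 and 1.70 FPKM in the Control libraries and 1.89, 2.30 and 1.502 FPKM in the YAP-S94A,S127A libraries. The YAP-S127A libraries had 7.08, 5.33 and 5.40 FPKM, and the YAP-S127A,S381A libraries had 27.9, 22.6 and 23.8 FPKM. NOV therefore went from a level like that of WISP3 in Control cells (1.78 ± 0.218 FPKM, SD, n = 3) to 24.8 ± 2.79 FPKM (SD, n = 3) in YAP-S127A,S381A cells, about the CTGF level of YAP-S127A cells. By log2 fold change in YAP-S127A,S381A against Control it ranked 99 of the 15055 loci, where CYR61 ranked 196 and CTGF 290.

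WISP3 encodes the least studied member of the family. It lies on chromosome 6 of GRCh37 from 112375278 to 112390889 on the plus strand. Its Control libraries had 2.345, 1.55 and 1.81 FPKM, and its YAP-S94A,S127A libraries had 1.93, 1.94 and 1.79 FPKM. It had 1.70, 2.38 and 1.80 FPKM in the YAP-S127A libraries and 1.62, 2.28 and 0.871 FPKM in the YAP-S127A,S381A libraries. The lowest and nearly the highest WISP3 values both came from YAP-S127A,S381A cells, and all groups overlapped. The log2 fold change against Control was -0.19 in YAP-S127A,S381A (95% interval -0.61 to 0.22), 0.03 in YAP-S127A (-0.38 to 0.44) and 0.00 in YAP-S94A,S127A (-0.41 to 0.42). These intervals exclude a rise of the size seen for CYR61, CTGF or NOV in the same comparison with either TEAD-binding mutant, but they do not show that WISP3 was unchanged.

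WISP1 and WISP2, which encode members first described as Wnt-induced, did not pass the filter on low values. WISP1, on chromosome 8 of GRCh37 from 134203282 to 134243933, had at most 0.0875 FPKM in any library. It was listed at 0 in the 3 YAP-S127A,S381A libraries and had 0.0475, 0.0454 and 0.0360 FPKM in the Control libraries. The other mutants had 0.0432, 0.0161 and 0.0324 FPKM (YAP-S127A) and 0.0875, 0.0461 and 0.0837 FPKM (YAP-S94A,S127A). WISP2, on chromosome 20 of GRCh37 from 43343485 to 43357150, lies within the opposite-strand noncoding gene KCNK15-AS1. Its values ran from 0 in YAP-S127A,S381A replicates 2 and 3 to 0.142 FPKM in YAP-S127A replicate 2, and the groups overlapped. With the depth unknown, no fold is given at these levels.

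The first question of the design is what activated YAP changed. In YAP-S127A,S381A against Control, 3 of the 4 members tested were higher, where 7.59% of all loci tested were higher, and 0 were lower, where 7.86% were lower. Against Control, NOV rose by a log2 fold change of 3.21 (SE 0.13, adjusted p = 1.6e-08), CYR61 by 2.57 (SE 0.16, adjusted p = 3.0e-07) and CTGF by 2.11 (SE 0.10, adjusted p = 4.9e-08), by limma on the log2(FPKM + 1) scale. Without the library labelled Control replicate 3 the log2 fold changes of NOV, CYR61 and CTGF were 3.19, 2.68 and 2.12 (adjusted p of 2.8e-07, 1.3e-06 and 7.3e-07 from limma). In YAP-S127A against Control, 2 of the 4 were higher, NOV (1.31, SE 0.13, adjusted p = 1.8e-04) and CYR61 (1.17, SE 0.16, adjusted p = 0.00112), where 2.07% of loci were higher, and 0 were lower, where 0.405% were. For CTGF the log2 fold change was 0.93 (SE 0.10) there, past the p threshold, as were 4.56% of loci in that direction, but not past the fold. Without the library labelled Control replicate 3 the log2 fold changes in YAP-S127A were 1.29 for NOV, 1.28 for CYR61 and 0.94 for CTGF, and the same calls were made. Leaving out YAP-S127A replicate 2 or replicate 3 brought CTGF past both.

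The second question is what the additional S381A mutation added. All 3 genes were higher in YAP-S127A,S381A than in YAP-S127A cells, where 5.17% of loci were higher and 5.94% lower, and 0 members were lower. The log2 fold change was 1.90 for NOV (SE 0.13, adjusted p = 1.7e-06), 1.40 for CYR61 (SE 0.16, adjusted p = 5.6e-05) and 1.19 for CTGF (SE 0.10, adjusted p = 8.3e-06), by limma. These are 4.18-, 2.72- and 2.33-fold differences in mean FPKM. YAP1 transcript was no higher in the cells with more CCN transcript, with a mean of 138 FPKM in YAP-S127A,S381A and 168 FPKM in YAP-S127A cells.

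**Figure D2:**
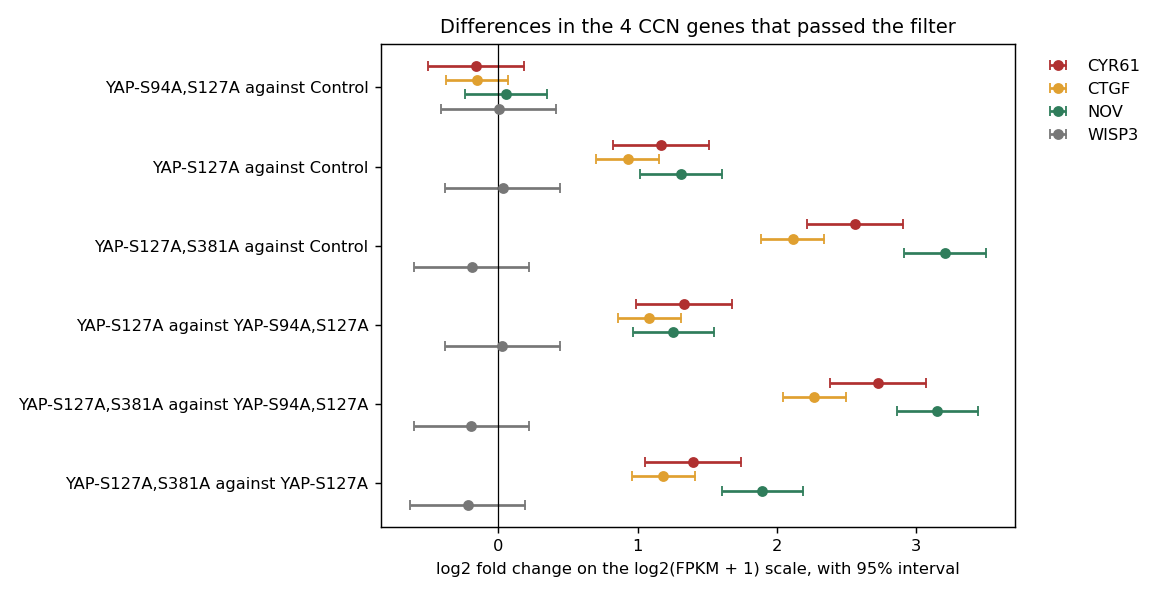
Log2 fold change on the log2(FPKM + 1) scale (horizontal axis) of the 4 CCN genes that passed the filter in the 6 pairwise comparisons, with points for limma estimates and bars for 95% intervals. The intervals of CYR61, CTGF and NOV lie above 0 in every comparison that sets a TEAD-binding mutant against Control or YAP-S94A,S127A, or YAP-S127A,S381A against YAP-S127A, those of YAP-S94A,S127A against Control span 0, and those of WISP3 span 0 throughout.

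The third question is what remained without TEAD binding. In YAP-S94A,S127A against Control the log2 fold change was -0.16 for CYR61 (95% interval -0.51 to 0.18), -0.15 for CTGF (-0.38 to 0.07) and 0.05 for NOV (-0.24 to 0.35), and 0 of the 4 were higher or lower, where 0.0797% of loci were higher and 0.093% lower. Without the library labelled Control replicate 3 these values were -0.05 for CYR61, -0.15 for CTGF and 0.03 for NOV. Against YAP-S94A,S127A cells, in which YAP1 averaged 154 FPKM, YAP-S127A cells had 3 members higher and 0 lower, where 2.54% of loci were higher and 0.95% lower. The log2 fold changes were 1.33 for CYR61 (adjusted p = 3.7e-04), 1.26 for NOV (adjusted p = 1.8e-04) and 1.08 for CTGF (adjusted p = 8.4e-05), by limma. In YAP-S127A,S381A against YAP-S94A,S127A they were 2.73, 3.16 and 2.27, where 7.81% of loci were higher and 8.1% lower. With the 6 libraries of the TEAD-binding mutants set against the other 6, the groups did not overlap for CYR61, CTGF or NOV, and the two-sided exact permutation p was 0.00216 for each, the smallest that 924 arrangements can give. In the limma fit of that contrast 5.47% of all loci tested were higher and 3.77% lower past both thresholds. At an adjusted p under 0.05 alone, 21.4% were higher and 19.1% lower in that fit. The share of all loci without overlap between these libraries was not computed. For WISP3 the exact permutation p was 0.619 and for WISP2 0.911. WISP1 gave an exact permutation p of 0.00433 in the lower direction, at levels under 0.1 FPKM and with 0 FPKM in all YAP-S127A,S381A libraries. These permutation tests shuffled libraries as if each were independent, although the libraries of a group were platings of the same line. Their p-values therefore do not measure the spread between lines with and without TEAD binding.

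**Figure D3:**
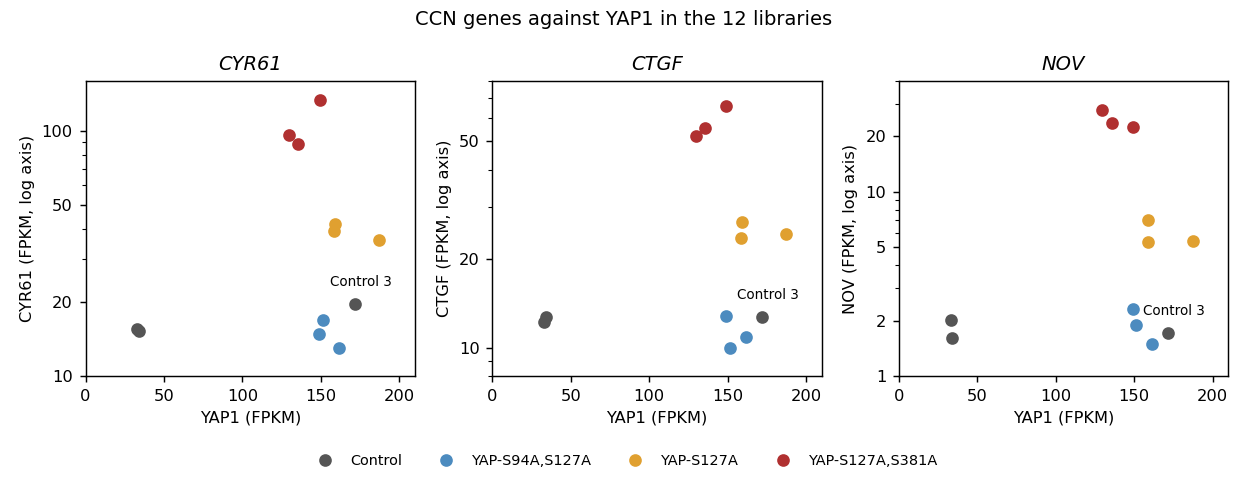
FPKM of CYR61, CTGF and NOV (vertical log axes) against FPKM of YAP1 (linear horizontal axis) in the 12 libraries, coloured by group. The library labelled Control replicate 3 has 172 FPKM of YAP1. For CTGF and NOV it lies among the other Control and the YAP-S94A,S127A libraries. For CYR61 it lies above them, at 19.7 FPKM, but below every YAP-S127A library. The YAP-S127A libraries lie to the right of all YAP-S127A,S381A libraries but below them.

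Libraries ordered by YAP1 transcript were not in the order of their CYR61, CTGF or NOV transcript. At 172 FPKM of YAP1, the library labelled Control replicate 3 had 19.7 FPKM of CYR61, 12.7 of CTGF and 1.70 of NOV, each below every YAP-S127A library. These data do not show whether its YAP1 reads come from a vector, since FPKM per locus does not separate vector from endogenous transcript. They also do not give YAP protein, and the part of YAP level in the CCN results was not tested.

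CCN transcripts as a whole, summed over the 6 genes, came to 33.2 ± 2.47 FPKM in Control, 30.1 ± 2.42 in YAP-S94A,S127A, 71.9 ± 4.82 in YAP-S127A and 190 ± 29.9 FPKM in YAP-S127A,S381A cells (SD, n = 3). The make-up of that sum shifted. NOV was 5.39% ± 0.912 of it in Control, 6.27% ± 0.862 in YAP-S94A,S127A, 8.23% ± 0.848 in YAP-S127A and 13.3% ± 2.89 in YAP-S127A,S381A cells (SD, n = 3). CTGF was 37.8%, 37.3%, 34.5% and 30.6% in the same order, and CYR61, the most abundant member in all 12 libraries, 50.7%, 49.6%, 54.3% and 55.3%. WISP3 was 5.75% of the sum in Control and 0.814% in YAP-S127A,S381A cells, at a similar FPKM.

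**Figure D4:**
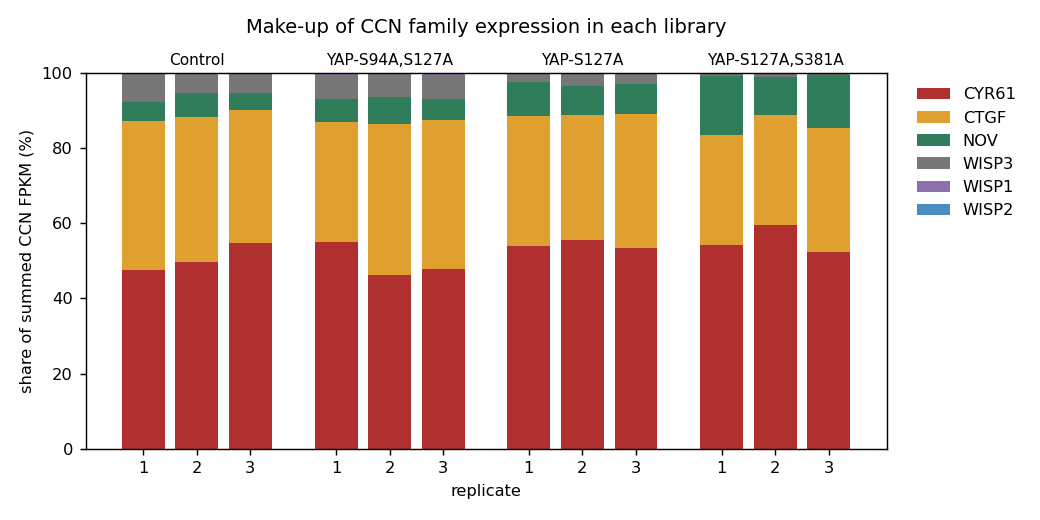
Share of the summed FPKM of the 6 CCN genes (vertical axis, percent) held by each gene, with 1 stacked bar per library. The NOV share is 4.73% to 6.43% in the Control libraries and 10.1% to 15.7% in the YAP-S127A,S381A libraries, while the WISP1 and WISP2 shares are too small to see.

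Within a library, the difference between CYR61 and CTGF averaged 0.39 ± 0.22 on the log2(FPKM + 1) scale (SD, n = 6) in the Control and YAP-S94A,S127A libraries and 0.74 ± 0.17 (SD, n = 6) in the TEAD-binding mutants. The increase of 0.35 had a two-sided exact permutation p of 0.0216, which was 0.152 after Benjamini-Hochberg adjustment over 7 comparisons of groups, so it did not pass. The difference between NOV and CTGF was chosen after the values were seen and is described without a test. It averaged -2.29 in Control, -2.08 in YAP-S94A,S127A, -1.90 in YAP-S127A and -1.19 in YAP-S127A,S381A libraries, and the YAP-S127A,S381A libraries did not overlap with those of any other group. The pseudocount narrows this difference where NOV is low. On the log2(FPKM) scale the means were -2.82, -2.58, -2.07 and -1.22 in the same order. On that scale the YAP-S127A libraries also lay above those of Control and YAP-S94A,S127A without overlap.

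The receptors that CCN proteins bind are mainly integrins, and their subunits were read from lists chosen with earlier results of these data known. The counts for all lists in YAP-S127A,S381A against Control stand beside 7.59% of all loci higher and 7.86% lower. Of 7 integrin subunits tested, 1 was higher and 2 were lower, and their median log2 fold change was -0.43 beside 0.01 over all loci. ITGB3, the beta subunit of the vitronectin receptor to which several CCN proteins bind, had 81.4, 97.4 and 101 FPKM in the Control libraries and 1.24, 1.77 and 1.63 FPKM in the YAP-S127A,S381A libraries. It had 44.35, 70.6 and 61.6 FPKM in YAP-S127A and 100.3, 113 and 119 FPKM in YAP-S94A,S127A libraries. The log2 fold change of ITGB3, whose locus also lists C17orf57, was -5.21 in YAP-S127A,S381A (adjusted p = 1.7e-09 from limma) and -0.68 in YAP-S127A (adjusted p = 0.0305, short of the fold threshold). ITGA6, an alpha subunit of laminin receptors, fell by 1.34 on the log2 scale, while ITGB2, the beta subunit of leukocyte integrins, rose by 1.96 from a mean of 0.266 FPKM to 3.90 FPKM. ITGAV and ITGB5, which form a further vitronectin receptor, had log2 fold changes of -0.43 and -0.60, past the p threshold but not the fold. ITGB1, the beta subunit shared by many integrins, was the most abundant with 119 FPKM in Control and 156 FPKM in YAP-S127A,S381A cells.

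Of 8 other receptors and co-receptors tested, 1 was higher and 2 were lower. TLR4, a pattern-recognition receptor, fell by 1.61 and LRP6, a Wnt co-receptor, fell by 1.01 on the log2 scale. LRP1, an endocytic receptor that takes up CTGF, rose by 1.58 (SE 0.52, adjusted p = 0.0311 from limma), but its Control libraries had 4.70, 4.18 and 22.05 FPKM, the last in the library labelled Control replicate 3. Its adjusted p rose to between 0.0706 and 0.112 without any 1 of Control replicate 1, Control replicate 2, YAP-S127A,S381A replicate 2 or YAP-S127A,S381A replicate 3.

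Of 9 growth factors that CCN proteins bind or modulate, 3 were higher and 2 were lower. PDGFB, the ligand of PDGF receptors, rose by 2.51 on the log2 scale to 7.82 FPKM, BMP4 by 2.01 to 8.87 FPKM and TGFB2 by 1.74 to 3.60 FPKM in YAP-S127A,S381A cells. BMP7 fell by 1.01 and TGFB3 by 0.58, from Control means of 1.33 and 1.25 FPKM. VEGFA, whose angiogenic activity CTGF can restrain, had 324, 9.09 and 10.2 FPKM in the YAP-S127A,S381A libraries against 13.2, 14.6 and 10.2 FPKM in Control, so that its mean rested on 1 library. The locus of VEGFA also lists HV497030, and its adjusted p was 0.347 by limma.

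Among proteins that share a module with the CCN family, 5 of 11 tested with an IGFBP module were higher and 3 were lower. ESM1, a secreted proteoglycan of endothelium, rose by a log2 fold change of 4.40 (adjusted p = 1.5e-08 from limma), from 0.517, 0.389 and 0.600 FPKM in Control to 28.8, 35.7 and 27.8 FPKM in YAP-S127A,S381A libraries, with 11.8, 13.4 and 7.22 FPKM in YAP-S127A. HTRA1, a secreted serine protease, fell by 3.68, IGFBP5 by 3.07 and IGFBP3 by 2.30 on the log2 scale, while CRIM1, IGFBP6, IGFBP4 and HTRA3 rose by 2.29, 2.21, 2.05 and 0.76. IGFBP proteins bind insulin-like growth factors. Members of this list moved in both directions. Of 4 tested with a von Willebrand factor C module, CRIM1 was higher and CHRDL1, a BMP antagonist, was lower by 1.94. Of 3 tested with a thrombospondin type 1 repeat, SPON2 was lower by 1.89, and of 3 tested with a cystine knot, SLIT2, an axon guidance ligand, was higher by 0.97. THBS1, a matrix protein with both a von Willebrand factor C module and thrombospondin repeats, had a log2 fold change of 0.96 and a ratio of means of 1.97, short of the fold threshold. Of 6 proteases that cleave CCN proteins, MMP3 and ADAMTS5 were higher, by 2.09 and 1.47, and MMP2 was lower, by 1.27. MMP3 and ADAMTS5 averaged 0.0521 and 0.0746 FPKM in Control, and such genes could pass the filter only through the group where they were high. HTRA3, ITGB2 and TGFB2, counted above as higher, also passed it only through the YAP-S127A,S381A libraries. ESM1, PDGFB and SLIT2, also counted as higher, reached 1 FPKM only in YAP-S127A and YAP-S127A,S381A libraries. They thus passed the filter only through groups where they were high.

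**Figure D5:**
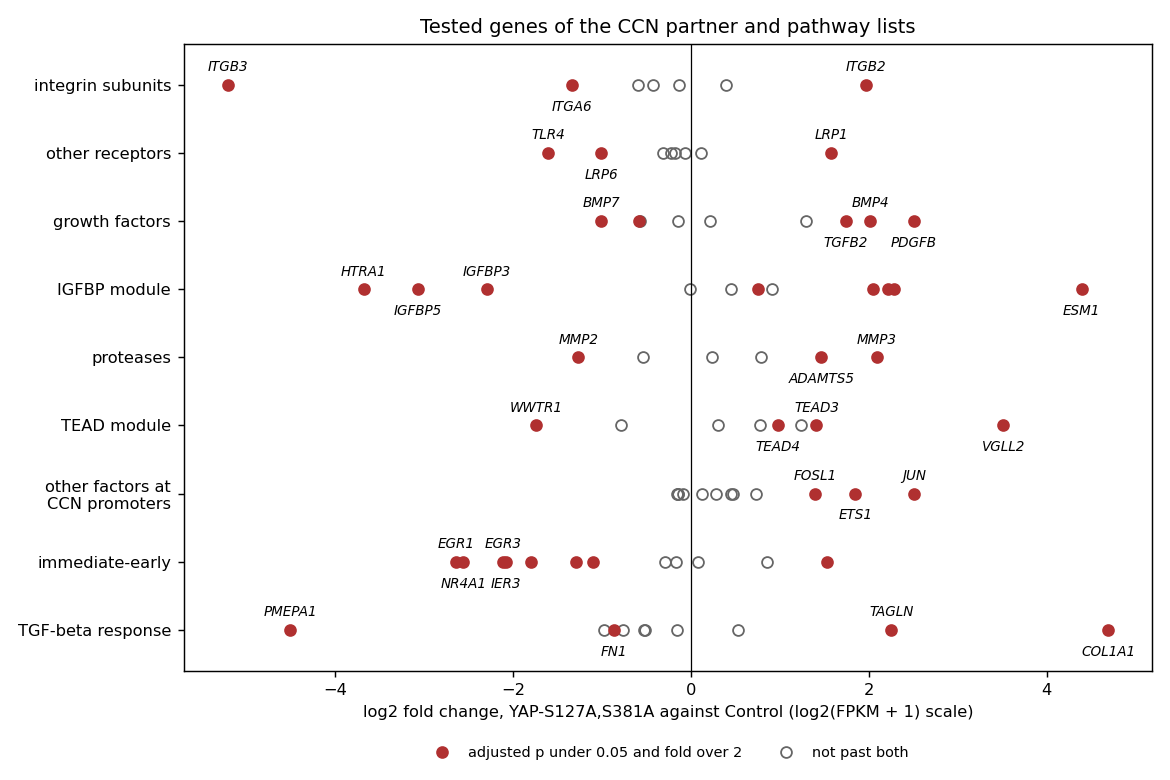
Log2 fold change in YAP-S127A,S381A against Control (horizontal axis, log2(FPKM + 1) scale) of the tested genes of 9 lists (rows), with filled points for genes past both thresholds, at most 4 of them named in each list. Integrin subunit ITGB3 lies farthest to the left at -5.21 and COL1A1 farthest to the right at 4.70, and 7 of 12 immediate-early genes are filled on the left.

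YAP and TAZ bind DNA through TEAD proteins, with which VGLL proteins also associate. Of 8 genes of the TEAD module tested, 3 were higher and 1 was lower in YAP-S127A,S381A against Control, while YAP1, TEAD1, TEAD2 and VGLL4 were not past both thresholds. WWTR1, which encodes the YAP paralog TAZ, had 193, 189 and 216 FPKM in Control and 61.7, 56.3 and 58.3 FPKM in YAP-S127A,S381A libraries, a log2 fold change of -1.74 (adjusted p = 9.5e-09 from limma). VGLL2, a TEAD cofactor, rose by 3.51 from a mean of 0.0778 FPKM, TEAD3 by 1.41 and TEAD4 by 0.98. VGLL2 reached 1 FPKM only in the YAP-S127A,S381A libraries, so it passed the filter only through the group where it was high. The ratio of means of TEAD4 was 2.01 and fell to between 1.97 and 2.00, below the fold threshold, without any 1 of Control replicate 2, Control replicate 3 or YAP-S127A,S381A replicate 2. Of 12 other transcription factors known at CCN promoters, 3 were higher and 0 were lower. JUN, a subunit of AP-1, had 5.00, 4.83 and 4.72 FPKM in Control, 13.2, 11.3 and 12.3 FPKM in YAP-S127A and 35.5, 32.4 and 29.1 FPKM in YAP-S127A,S381A libraries, without overlap between these groups. JUN rose by 2.51, ETS1 by 1.85 and FOSL1 by 1.40 on the log2 scale, whereas SRF and SMAD4 had log2 fold changes of -0.15 and -0.14.

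CYR61 and CTGF are also immediate-early genes, which serum induces within minutes, and most other tested genes of that class were lower. Of 12 tested, 7 were lower and 1 was higher in YAP-S127A,S381A against Control, beside 7.86% and 7.59% of all loci, with a median log2 fold change of -1.20 beside 0.01 over all loci. EGR1, a zinc finger factor, had 19.6, 14.7 and 14.6 FPKM in Control and 1.85, 1.505 and 1.92 FPKM in YAP-S127A,S381A libraries, and fell by 2.64 on the log2 scale. NR4A1, an orphan nuclear receptor, fell by 2.56, EGR3 by 2.11 and IER3 by 2.08, and ATF3, a stress-induced factor, was the gene that rose, by 1.53. Of 10 TGF-beta response genes, a class to which CTGF is often assigned, 2 were higher and 2 were lower. COL1A1, a chain of type I collagen, rose by 4.70 and TAGLN by 2.25, while PMEPA1, an inhibitor of TGF-beta signaling, fell by 4.51 and FN1 by 0.87. COL1A1 reached 1 FPKM only in libraries of the TEAD-binding mutants, so it passed the filter only through groups where it was high. The counts of higher and lower genes without the library labelled Control replicate 3 were 6 and 3 for the IGFBP module, 1 and 1 for thrombospondin repeats, 3 and 1 for proteases and 2 and 1 for TGF-beta response genes, and those of the other lists were equal. In the TEAD module the equal count held different genes, since TEAD4 was no longer called and YAP1 was. The adjusted p of FN1 rose from 0.0293 to between 0.0600 and 0.0820 without the library labelled Control replicate 3 or any 1 of the YAP-S127A,S381A libraries.

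In YAP-S127A against Control, where 2.07% of all loci were higher and 0.405% lower, counts of higher genes were 1 of 7 integrin subunits (ITGB2), 0 of 8 other receptors, 2 of 9 growth factors (TGFB2 and PDGFB), 2 of 11 IGFBP-module genes (ESM1 and IGFBP4), 1 of 6 proteases (MMP3), 1 of 8 TEAD module genes (VGLL2), 2 of 12 promoter factors (JUN and ETS1), 0 of 12 immediate-early genes and 2 of 10 TGF-beta response genes (COL1A1 and TAGLN). Of these called genes, MMP3 and VGLL2 stayed below 1 FPKM in all Control and YAP-S127A libraries. ITGB2 and TGFB2 reached 1 FPKM in fewer than 3 libraries outside YAP-S127A,S381A. All of them thus passed the filter only through the YAP-S127A,S381A libraries. ESM1, PDGFB and COL1A1 reached 1 FPKM only in libraries of the TEAD-binding mutants, so they passed it only through groups where they were high. No tested gene of these lists was lower past both thresholds. NR4A1 had the smallest adjusted p among the immediate-early genes at 1.5e-04 from limma, with a ratio of means of 0.598. The calls of VGLL2 (9.73-fold, adjusted p = 0.0432 from limma) and PDGFB (2.80-fold, adjusted p = 0.0355) lay close to the threshold of p, since the adjusted p of VGLL2 rose to between 0.0617 and 0.132 without any 1 of 9 libraries and that of PDGFB to between 0.0565 and 0.106 without any 1 of 7. ETS1, at a ratio of means of 2.01, fell below the fold without Control replicate 2 (1.94) or YAP-S127A replicate 1 (1.93), and IGFBP4 without YAP-S127A replicate 3 (2.00). Without the library labelled Control replicate 3, 1 receptor (LRP1) and 3 IGFBP-module genes were higher, 1 growth factor was, and the 1 gene called in the TEAD module was YAP1 in place of VGLL2. In YAP-S94A,S127A against Control, 0 genes of these lists were past both thresholds, and without that library 1 was, YAP1, which the vector encodes.

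The genes on either side of the CCN genes were read to see whether neighbours moved too. DDAH1, which encodes an enzyme that degrades an inhibitor of nitric oxide synthase, lies 2.4 kb from CYR61. The authors name DDAH1 itself as an established YAP/TAZ target, and whether its change relates to its position was not tested. DDAH1 had 5.96, 5.34 and 7.10 FPKM in Control and 9.43, 9.95 and 8.44 FPKM in YAP-S127A libraries. In the YAP-S127A,S381A libraries it had 16.9, 15.8 and 17.7 FPKM. DDAH1 rose by 1.33 in YAP-S127A,S381A (adjusted p = 8.5e-07 from limma) and had a log2 fold change of 0.53 in YAP-S127A, past the p threshold and not the fold. MAL2, a membrane traffic protein 170.8 kb from NOV, had 0.636, 0.619 and 0.993 FPKM in Control and 15.7, 14.7 and 14.8 FPKM in YAP-S127A,S381A libraries, and rose by 3.21 on the log2 scale. MAL2 reached 1 FPKM only in libraries of the TEAD-binding mutants, so it passed the filter only through groups where it was high. ENPP2, which encodes autotaxin and lies 132.7 kb to the other side of NOV, fell by 1.14. NDRG1, 5.5 kb from WISP1, rose by 1.24 although WISP1 itself was at or near 0 FPKM. For CTGF, ENPP1 at 53.0 kb had a log2 fold change of -0.15 and MOXD1 at 344.7 kb fell by 0.79, to a ratio of means that was 0.456, 0.578 without Control replicate 3 and 0.503 without YAP-S127A,S381A replicate 3. TUBE1, 1.0 kb from WISP3, had a log2 fold change of -0.18 (adjusted p = 0.137 from limma), and ZNHIT6, ADA and FYN lay between 0.12 and 0.29.

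The loci with a name whose log2(FPKM + 1) values were most like those of a member over the 12 libraries were ranked by Pearson's r, as a description in which the 12 points fall into 4 groups. For CYR61 they included BGN and BCAM, with r of 0.9944 and 0.9939. For CTGF they were NMT2, ARHGAP29 and DENND2A, with r of 0.9960, 0.9958 and 0.9955, and the fifth was the locus of CAV1 and CAV2 at 0.9951. For NOV they were ABI3, NUAK1 and BTBD11, with r of 0.9960, 0.9953 and 0.9953. CYR61 and CTGF had an r of 0.9885 with each other, and their r with NOV was 0.978 and 0.985. WISP3 was least like the other tested members, with r of -0.37 to -0.25, and its nearest locus was MYC at 0.8568.

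Marker lists of the melanocyte lineage and of other cell types were summed in each library. The FPKM summed over 9 melanocyte markers was 366 to 454 in Control and 43.2 to 52.2 in YAP-S127A,S381A libraries, and that of 7 fibroblast markers was 45.8 to 48.2 and 81.4 to 89.8. The melanocyte sum was carried by SOX10, S100A1 and S100B, and of the 4 markers tested these 3 were lower while MITF was higher, by 4.08-fold (adjusted p = 1.3e-04 from limma). Of the 4 fibroblast markers tested, 2 were higher and 0 lower, beside 7.59% and 7.86% of all loci. COL1A1 accounts for most of the increase in the sum. PDGFRB averaged 2.61 FPKM in Control and 10.4 FPKM in YAP-S127A,S381A cells, LUM 1.38 and 2.30 FPKM, and PDGFRA 42.5 and 39.3 FPKM. COL1A2, COL3A1 and DCN stayed at or below 0.739 FPKM in all libraries. Keratinocyte markers summed to 30.1 to 33.2 in Control and 23.4 to 30.3 in YAP-S127A,S381A libraries, which overlapped. That sum was carried by KRT10, with means of 25.2 and 24.8 FPKM, and hid changes in both directions. KRT14 went from a mean of 6.87 to 0.434 FPKM and KRT5 from 0.0282 to 1.56 FPKM. Endothelial and leukocyte markers summed to at most 1.45 and 0.708 FPKM in any library. In bulk RNA, fewer cells of a type and less RNA per cell cannot be told apart, and the part of these markers in the CCN results was not tested.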

How the data were processed

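The RNA of 12 A375 libraries was sequenced with Illumina TruSeq chemistry. The authors aligned the reads to hg19 with Bowtie2 2.0.0 and TopHat2 2.0.4, assembled transcripts with Cufflinks 2.0.2 against UCSC known genes, and deposited log2(FPKM + 1) per locus and library. How Cufflinks divided reads between overlapping or antisense genes is not given in the sources used here, and the depth of each library is unknown. Of 31588 entries, 3 identical ones were removed.

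Groups came from the sample titles. Members were matched by symbol, and their choice and that of the gene lists were made with earlier results of these data known. A linear model with a separate mean for each group was fitted across the 12 libraries with limma (version 3.58.1, R 4.3.3), letting the variance prior follow expression, for the 15055 loci that reached 1 FPKM in 3 or more libraries. The pseudocount of 1 makes log2 fold changes of weakly expressed genes too small, and folds are ratios of mean FPKM without a pseudocount. Intervals are at 95%. The fit was tested on simulated data. Single values were compared with two-sided exact permutation tests, which for 3 against 3 libraries cannot go below 0.1. These tests treat platings of the same line as independent.

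Named genes were YAP1, the members, up to 4 genes per list with the largest called change in YAP-S127A,S381A, the 5 loci most like each tested member, and the nearest coding gene on each side with a locus in the table. Further list genes were named after their values were seen. Of the loci most like a member, 1 is not reported here. Gene coordinates came from GENCODE on GRCh37 and promoters from RefSeq on GRCh38.p14. Alternatives were another pseudocount, filters, scalings, thresholds, a replicate block and each library left out. Figures used matplotlib 3.10.9.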

Additional observations from a re-analysis of the deposited data

How the results depend on the processing

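The number of CCN genes called higher stayed within 1.5 times of its value in each comparison under all alternatives, and no called direction reversed. The number called lower was 0 except without a filter, where 1 gene (WISP1) was called lower in YAP-S127A,S381A against Control, 1 in YAP-S127A,S381A against YAP-S94A,S127A and 1 in the TEAD-binding libraries against the others, at levels under 0.1 FPKM. Over the alternatives other than leaving out a library, the log2 fold change in YAP-S127A,S381A against Control was 3.17 to 3.73 for NOV, 2.47 to 2.63 for CYR61 and 2.03 to 2.19 for CTGF. With each library left out it was 3.12 to 3.27, 2.39 to 2.69 and 2.02 to 2.19. The sign of WISP3 near 0 changed with single libraries. Omitting the fold threshold brought CTGF in YAP-S127A past the call. Replicate numbers did not pair the libraries, since deviations of same-numbered libraries correlated at -0.149 to 0.163. With the replicate number as a block, 3 CCN genes were higher in YAP-S127A,S381A against Control and 2 in YAP-S127A against Control, as without it. The increase of CYR61 minus CTGF was 0.30 to 0.42 with each library left out. Background counts moved most with the strictest filter and with no fold threshold: loci higher in YAP-S127A,S381A against Control were 1143, 538 and 3443 in turn, in YAP-S127A against Control 311, 87 and 687, in YAP-S127A,S381A against YAP-S127A 778, 255 and 2757, and in YAP-S127A against YAP-S94A,S127A 382, 134 and 958. In YAP-S127A,S381A against YAP-S94A,S127A they were 1176, 552 and 3490, and in the TEAD-binding libraries against the others 823, 307 and 3219. Lower loci, in the same order of the 6 comparisons, were 1184, 510 and 2932, then 61, 7 and 263, then 894, 367 and 2179, then 143, 25 and 649, then 1219, 538 and 3056, then 568, 131 and 2880. In YAP-S94A,S127A against Control 12 loci were higher and 14 lower, and 0 and 1 with the strictest filter. Depth is unknown, so differences in WISP1 and WISP2 could not be judged.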
